A study of Homo sapiens with 8 samples.

Results

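The regions described here are the constitutive gene body sites of U2OS cells, that is, stretches of open chromatin inside protein-coding genes and away from promoters that were found in every library of the series. U2OS is a human osteosarcoma cell line, and open chromatin was measured by ATAC-seq, in which a transposase cuts and tags DNA that is not packed into nucleosomes. WT cells and ASH1L-/- cells, a U2OS line in which the histone methyltransferase gene ASH1L was disrupted by CRISPR deletions, were profiled unchallenged or 3 h after UV-C at 20 J per m2, with 2 libraries in each of the 4 groups. The knockout was represented by 1 line, so that what that line carries besides the deletions cannot be told apart from the loss of ASH1L. The labels give the 2 libraries of a group as biological replicates.

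Members were selected on the deposited peak lists themselves. The intervals of all 8 lists were merged into 547779 union sites on hg38, of which 60324 held an interval of every library. Of these, 19686 had their midpoint inside a protein-coding gene and more than 1 kb from every protein-coding start site, and these are the sites described below. Another 14145 of the sites shared by all libraries were promoter sites within that distance, and 26493 were intergenic. Presence in all 8 libraries was the criterion of choice, so the high level of the sites is a description and not a finding. The 5910 gene body sites found in 7 of the 8 libraries had a median mean percentile of 57.9, against 79.0 for the members. At the other limit of the rule, the 227 members in the first 100 bp beyond the 1 kb limit had a median mean percentile of 74.5, and the 301 shared sites in the last 100 bp inside it 73.8.

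Open chromatin inside genes and far from promoters is typical of enhancers, stretches of DNA to which sequence-specific factors bind and from which transcription of nearby or distant genes is regulated. In mesenchymal cells, such sites are known for binding AP-1, the FOS and JUN dimers that respond to growth and stress signals, together with TEAD, the DNA-binding partner of the Hippo pathway co-activator YAP, and RUNX, the family of runt-domain factors that directs bone formation. CTCF, which holds chromatin loops, binds another class of open sites, and ETS and NRF1 factors bind many promoters.

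The libraries held between 158198 and 220783 distinct regions. Regions that reached a q-value of 0.05 made up 77.4% to 80.1% of the unchallenged lists and 85.7% to 94.2% of the UV lists. Median region width was 242 to 291 bp without and 356 to 444 bp with UV. The percentiles used below depend on the make-up of the lists, which thus differed with UV. A measure of depth was the background pile-up that reconciles the fold enrichment with the p-value of each region. It was 5.87 fragments in unchallenged ASH1L-/- replicate 1, 1.39 to 2.10 in the other unchallenged libraries and 2.45 to 2.81 after UV. Cell identity was checked at start sites. RUNX2, COL1A1, SPARC, VIM, ALPL and PRRX1 had a region within 1 kb of a start site in all 8 libraries, COL1A2 in 7 and TWIST1 in 2. The blood markers CD3E, PTPRC and SPI1 had one in 0, 1 and 1 libraries, whereas the epithelial genes CDH1, EPCAM and GRHL2 and the neuronal genes SNAP25, SYP and RBFOX3 had one in all 8, so that an open start site alone did not separate cell types.

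To show what the sites look like, the reference sequence of 13 of them is given, in windows of 200 bp on the plus strand of hg38 centred on the mean summit of the 8 libraries. Capitals mark matches, on either strand, to the letters searched: TGANTCA for AP-1, GGAATG for TEAD, TGTGGT for RUNX, CCNNNAG followed directly by NNGGC for CTCF, CCGGAAG for ETS, TTGGC and GCCAA with 5 open bases between them for NFI, and GCGC and TGCGC with 1 open base between them for NRF1 (N is any base). Different motifs could overlap and were counted separately. UBE2E2 holds a site that was among the strongest in every library; CREB5, ITGA5, PDLIM5, RUNX1 and the first KDM5C site rose after UV, and the others fell.
UBE2E2: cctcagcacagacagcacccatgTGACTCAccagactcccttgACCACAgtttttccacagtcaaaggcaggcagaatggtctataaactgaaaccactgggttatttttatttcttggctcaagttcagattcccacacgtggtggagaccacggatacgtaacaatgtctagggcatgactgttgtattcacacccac
CREB5: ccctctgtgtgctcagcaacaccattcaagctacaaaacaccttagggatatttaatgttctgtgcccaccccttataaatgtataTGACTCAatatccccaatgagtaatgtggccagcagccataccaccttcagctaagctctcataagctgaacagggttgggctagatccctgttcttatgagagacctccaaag
ITGA5: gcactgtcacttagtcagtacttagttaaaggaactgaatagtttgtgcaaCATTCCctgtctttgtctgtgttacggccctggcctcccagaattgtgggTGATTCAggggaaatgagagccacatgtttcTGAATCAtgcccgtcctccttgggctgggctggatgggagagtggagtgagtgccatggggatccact
PDLIM5: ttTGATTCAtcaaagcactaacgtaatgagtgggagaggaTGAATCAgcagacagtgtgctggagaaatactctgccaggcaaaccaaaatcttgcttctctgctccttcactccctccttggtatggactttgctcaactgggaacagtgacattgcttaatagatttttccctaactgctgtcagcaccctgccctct
RUNX1: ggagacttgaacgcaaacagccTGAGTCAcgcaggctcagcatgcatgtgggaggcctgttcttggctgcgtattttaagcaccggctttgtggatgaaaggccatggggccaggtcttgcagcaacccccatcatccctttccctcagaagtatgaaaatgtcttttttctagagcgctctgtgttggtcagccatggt
HS1BP3: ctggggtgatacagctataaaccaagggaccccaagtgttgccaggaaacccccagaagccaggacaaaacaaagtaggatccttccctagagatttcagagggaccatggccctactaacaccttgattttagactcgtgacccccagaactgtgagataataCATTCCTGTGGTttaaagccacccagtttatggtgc
CRYL1: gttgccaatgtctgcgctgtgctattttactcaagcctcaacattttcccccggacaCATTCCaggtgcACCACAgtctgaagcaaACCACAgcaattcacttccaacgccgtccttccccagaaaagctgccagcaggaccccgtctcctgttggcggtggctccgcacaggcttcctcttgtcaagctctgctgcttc
PDZD2: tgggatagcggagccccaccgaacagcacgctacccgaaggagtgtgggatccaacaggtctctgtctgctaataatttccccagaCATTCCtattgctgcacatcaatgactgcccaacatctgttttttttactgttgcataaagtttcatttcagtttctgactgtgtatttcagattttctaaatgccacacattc
TLN2: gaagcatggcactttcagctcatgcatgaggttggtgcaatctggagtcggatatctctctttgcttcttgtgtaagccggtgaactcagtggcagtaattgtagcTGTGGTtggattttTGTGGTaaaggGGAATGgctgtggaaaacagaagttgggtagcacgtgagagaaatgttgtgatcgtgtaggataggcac
KDM5C, first: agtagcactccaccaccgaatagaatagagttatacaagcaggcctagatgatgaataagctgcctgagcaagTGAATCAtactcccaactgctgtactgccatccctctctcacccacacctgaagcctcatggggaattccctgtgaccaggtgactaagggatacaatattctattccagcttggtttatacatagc
KDM5C, second: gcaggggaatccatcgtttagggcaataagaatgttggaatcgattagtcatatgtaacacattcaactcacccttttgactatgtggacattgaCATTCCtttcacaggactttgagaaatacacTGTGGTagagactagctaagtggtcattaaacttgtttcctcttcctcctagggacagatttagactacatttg
SMAD3: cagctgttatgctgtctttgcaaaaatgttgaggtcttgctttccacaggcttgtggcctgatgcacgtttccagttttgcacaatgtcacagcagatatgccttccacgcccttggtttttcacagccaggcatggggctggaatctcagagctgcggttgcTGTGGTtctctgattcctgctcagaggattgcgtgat
KCTD14/NDUFC2-KCTD14: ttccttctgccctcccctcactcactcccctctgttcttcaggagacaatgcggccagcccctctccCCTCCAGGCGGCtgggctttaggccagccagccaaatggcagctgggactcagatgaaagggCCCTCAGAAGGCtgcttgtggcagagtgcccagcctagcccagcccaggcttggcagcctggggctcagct
Among these windows, those of the sites that rose held AP-1 letters, with 2 matches each in ITGA5 and PDLIM5. The AP-1 matches in ITGA5, PDLIM5 and the first KDM5C site have A or T at the open central position. TEAD or RUNX letters, and none of AP-1, stood in the windows of HS1BP3, CRYL1, PDZD2, TLN2, SMAD3 and the second KDM5C site, all of which fell. Windows were picked to show the motifs and are examples only; the counts over all members are given below. The CREB5 window is chr7:28666193-28666392, in intron 5. The HS1BP3 window is chr2:20614129-20614328, in a non-coding exon, and that of CRYL1 is chr13:20425047-20425246, in intron 5.

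The 19686 sites lay in 7376 of 19970 protein-coding genes. Midpoints fell in introns at 18345 sites (93.2%), in non-coding exon sequence at 955 (4.85%) and in coding sequence at 386 (1.96%). Of the 15293 sites that could be placed on an intron of the canonical transcript, 4467 (29.2%) lay in intron 1 and 2601 (17.0%) in intron 2. The median distance to the nearest protein-coding start site was 13031 bp, with quartiles of 5003 and 34064 bp, and the farthest site was 864729 bp away. Only 534 sites (2.71%) lay within 1 kb of the start of an annotated long non-coding RNA. Level changed little with position. The median of the mean percentile was 79.3 in introns, 74.8 in non-coding exons and 77 in coding sequence, and it was 76.9 for the 4919 sites at 1000 to 5000 bp from a start site and 79.9 for the 1366 beyond 100000 bp. GC content of the windows fell over the same distances, from a median of 52.0% to 45.5%.

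Nearly every second host gene, 3427 (46.5%), held a single site, and 316 genes held 10 or more. RUNX1, which encodes a runt-domain factor of blood and mesenchyme, had the most with 57 sites over 1216.9 kb on chromosome 21. Other genes with many sites included LRMDA and RBFOX1, an RNA-splicing regulator best known from neurons, which held 39 each, KAZN with 32, the potassium channel gene KCNMA1 with 31, NAV2 with 30 and DAB1, a reelin adaptor, with 28, as had the gene listed as ENSG00000282278. These are very long genes. Counted per 100 kb among genes of at least 50 kb, the order was ITGB3 with 13.3 sites, the focal adhesion gene PXN with 12.7, TGFB1 with 11.5, HS1BP3 with 11 and the interleukin receptor gene IL6R with 10.9. ITGB3 encodes the beta subunit of an integrin receptor of the extracellular matrix. Its 8 sites had a median mean percentile of 88.2, although it had no promoter site shared by all libraries. Of all host genes, 5111 (69.3%) had a promoter site in all 8 libraries and 527 (7.14%) had none in any library. Among the 12594 protein-coding genes without a member, 7782 (61.8%) had a promoter site in all 8. The 57 sites in RUNX1 ranged in mean percentile from 36 to 99.4, and their median was 79.8, against 79.0 over all members.

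Peak strength was followed as a percentile: within each list, regions were ranked by fold enrichment over background, and a site took the percentile of its strongest region. This measure was used because the fold enrichments of separate lists are not normalised to each other. Fold enrichment itself was higher after UV in all classes of sites. The median fold enrichment of the members was 6.18 ± 0.976 (SD, n = 4) in the unchallenged libraries and 8.67 ± 1.69 (SD, n = 4) after UV, a median difference of 0.40 on the log2 scale, against 0.33 over all 60324 shared sites. On the percentile scale, the median of the members was 80.8 and 82.1 in unchallenged WT, 78.3 and 80.3 in WT 3 h post UV, 84.3 and 77.8 in unchallenged ASH1L-/- and 79.0 and 82.9 in ASH1L-/- 3 h post UV. The 4 UV libraries averaged 80.1 ± 2.04 (SD) and the 4 unchallenged ones 81.3 ± 2.73 (SD), and both ranges overlapped. Promoter sites averaged 83.4 ± 2.49 (SD, n = 4) after UV and 87.6 ± 1.57 (SD, n = 4) without, and the ranges of their medians, 79.9 to 85.8 and 85.8 to 89.6, touched but did not cross. By genotype, the member medians averaged 80.4 ± 1.59 (SD, n = 4) in WT and 81.0 ± 3.11 (SD, n = 4) in ASH1L-/-.

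**Figure D1:**
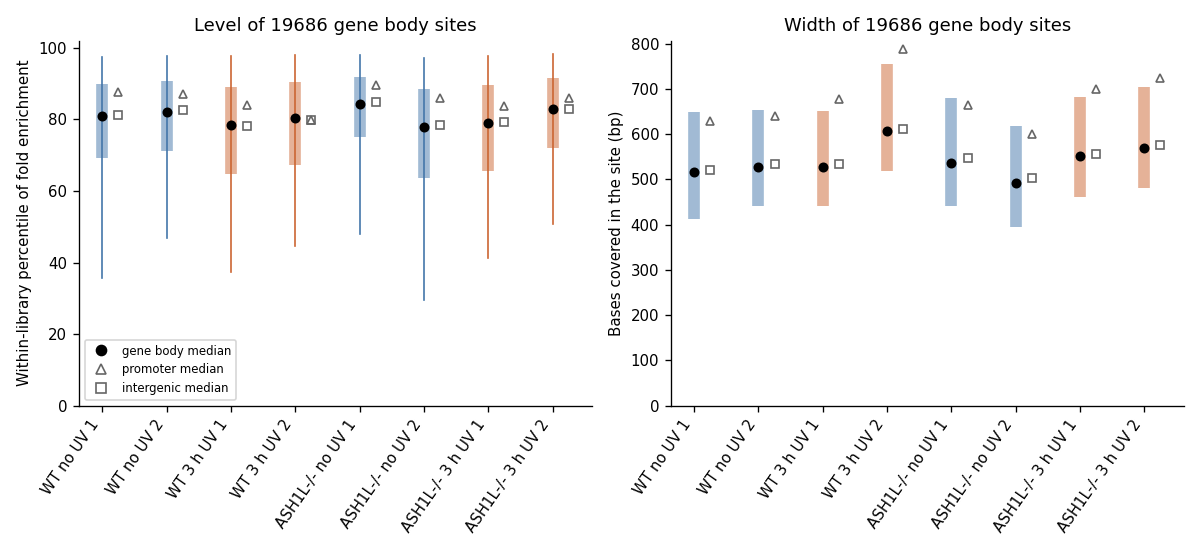
Level and width of the 19686 constitutive gene body sites in each library. Left, within-library percentile of fold enrichment; right, bases covered by the library's regions within the site. Black points are medians, thick bars the middle 50% of sites and thin lines the 5th to 95th percentile of sites (left only); triangles and squares are the medians of promoter and intergenic sites, and blue and orange mark libraries without and with UV. Gene body medians of the percentile lie between 77.8 and 84.3 with no separation by UV, and median widths between 492 and 607 bp.

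Individual sites were spread much more widely than these medians. The mean percentile over the 8 libraries had a median of 79.0 with quartiles of 67.9 and 88.3, and 6481 sites (32.9%) were in the top 25% of every list. At the other end, 2400 sites (12.2%) fell into the lowest 25% of at least 1 list and 2 did so in all 8. The range of one site over the 8 libraries had a median of 22.8 percentile points, and 3154 sites (16%) stayed within 10 points. Summits were less fixed than the sites: at 6998 sites (35.5%) the 8 summits lay within 100 bp, and the median spread was 200 bp.

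The strongest members were the same in every library by choice, since they were ranked by their lowest percentile. Among them were intronic sites of UBE2E2, a ubiquitin-conjugating enzyme gene, SYT14 of the synaptotagmin family, CAMTA1, a calmodulin-binding transcription activator, the sphingomyelin synthase gene SGMS2, and HSD17B12. At the UBE2E2 site (chr3:23567772-23568484, intron 5) fold enrichment was 25.4 and 28.0 in unchallenged WT, 25.5 and 27.9 in WT after UV, 22.3 and 25.7 in unchallenged ASH1L-/- and 25.4 and 24.8 in ASH1L-/- after UV. UV and unchallenged values overlapped there. The SYT14 site (chr1:210052129-210052776, intron 4) lay above 99.9 in all 8 lists and had none of the 7 motifs in its window. The most even members of middle level were in CA3, WHAMM and MRPL19/GCFC2. The WHAMM site (chr15:82832445-82833265, intron 9) had percentiles of 86.6, 88.0, 90.2 and 89.7 in WT and 90.1, 87.1, 89.8 and 89.5 in ASH1L-/-, in the order unchallenged, unchallenged, UV, UV.

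The first comparison asked at which sites open chromatin changed 3 h after UV, with both genotypes averaged. In a limma fit over all 60324 shared sites, 515 members rose in percentile and 562 fell at an adjusted p under 0.05, or 2.62% and 2.85% of the members. Over all sites tested the shares were 1.94% and 2.75%. Promoter sites had 0.452% higher and 1.97% lower, and intergenic sites 2.23% and 3.09%, so that the share of falls among members was close to the background and the share of rises above it. All 4 UV percentiles lay above all 4 unchallenged ones at 1500 members (7.62%, against 5.99% of all sites) and below them at 1894 (9.62%, against 12.3%). Calls were close to the threshold, the smallest adjusted p being 0.0231, and they depended on single libraries: without either UV-treated ASH1L-/- library 0 members passed, and without unchallenged ASH1L-/- replicate 2, unchallenged WT replicate 1 or WT UV replicate 2 the number was 123, 614 and 458. Without the deep unchallenged ASH1L-/- replicate 1 it was 1687, of which 1394 rose and 293 fell. The proportion of rises to falls moved with the scale. Ranking only among the shared sites gave 1812 higher and 1109 lower, and a q-value of 0.01 or below 750 and 225. Log2 fold enrichment without centring gave 4999 and 158. These are counts of members, and shares over all sites were not taken under these settings. Ranked among the shared sites, the median UV difference was 0.99 in members and -1.01 over all 60324 sites. With the q-value limit the medians were 3.04 in members and 1.30 over all sites shared under it.

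At the sites that rose, the median percentile was 81.4 and 81.5 in unchallenged WT and 95.4 and 96.2 after UV, and in ASH1L-/- it was 82.9 and 76.2 before and 95.2 and 95.9 after. For those that fell it went from 89.6 and 91.9 to 63.5 and 67.8 in WT, and from 92.8 and 90.9 to 70.3 and 73.5 in ASH1L-/-. Typical rises were thus smaller than falls, with a median difference of 15.4 percentile points for the former and -22.8 for the latter, on a scale that ends at 100. The 515 risers lay in 513 host genes, some sites being shared by overlapping genes, and the 562 fallers in 529; 60 genes held both.

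The letters in the windows differed between the 2 directions. AP-1 letters stood in 310 of the 515 windows that rose (60.2%), in 36.2% of the 18609 members that passed in neither direction and in 105 of the 562 that fell (18.7%). TEAD letters had the opposite order, with 17.3% of the risers, 21.3% of the uncalled members and 39.3% of the fallers, and so had RUNX letters with 16.5%, 21.2% and 34.2%. CTCF letters were rarer in both directions, at 2.72% of risers and 4.27% of fallers against 9.09% of uncalled members. ETS letters were present in 1.29% of all members, NFI letters in 0.0457% and NRF1 letters in 0.0762%. These are shares of sites and were not tested, and a match to letters is not evidence that a factor was bound.

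**Figure D2:**
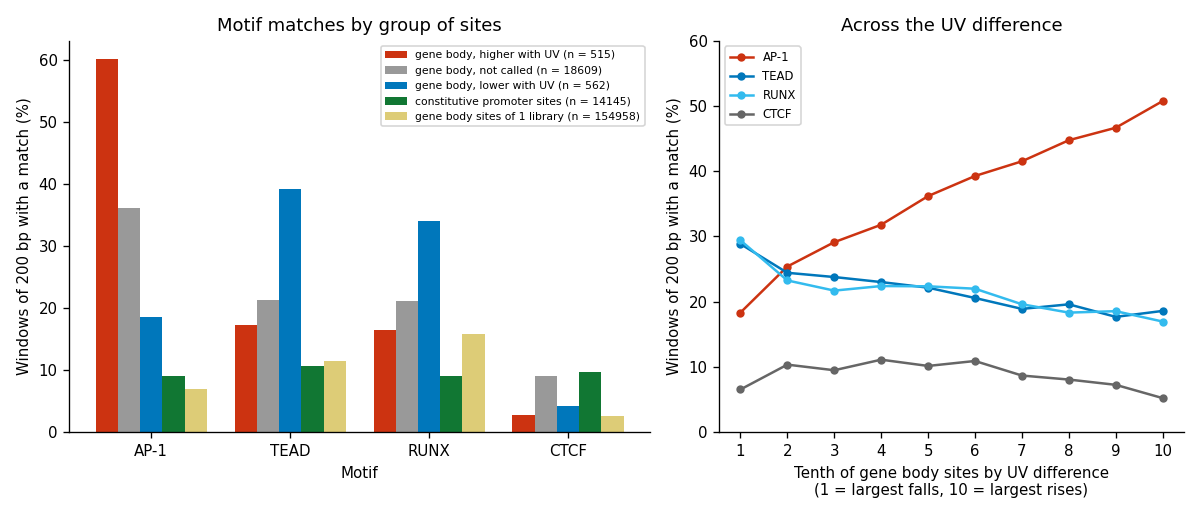
Share of 200 bp windows with a match to 4 motifs. Left, bars for gene body sites higher with UV, not called or lower with UV, for promoter sites of all libraries and for gene body sites found in 1 library; right, the same shares in 10 equal groups of the 19686 gene body sites ordered by their UV difference. AP-1 climbs from 18.3% in the first group to 50.7% in the last, whereas TEAD goes from 28.8% to 18.6% and RUNX from 29.4% to 17.0%.

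The order did not rest on the called sites alone. When all members were cut into 10 equal groups by their UV difference, the AP-1 share climbed at each step from 18.3% among the largest falls to 50.7% among the largest rises. TEAD went from 28.8% to 18.6% and RUNX from 29.4% to 17.0% over the same groups, with small reversals on the way. Within bands of the mean percentile the contrast was also present. Among members between 75 and 85, for example, 61.9% of 97 risers and 11% of 127 fallers had AP-1 letters, and 18.6% and 41.7% had TEAD letters. Among the members whose 8 summits lay within 100 bp, the AP-1 share was 51.5% of 227 risers, 30.4% of all 6998 and 18.4% of 261 fallers. AP-1 matches in these 6998 windows lay a median of 58.5 bp from the mean summit, farther than TEAD (52 bp) and RUNX (51 bp) matches. The windows reach 100 bp to either side, so AP-1 letters were not gathered at the summit. Leaving out each library in turn and taking the 500 members with the smallest p in each direction gave AP-1 shares of 57.0% to 61.4% among rises and 16.4% to 25.6% among falls, TEAD shares of 16.2% to 19.2% and 35.8% to 43.8%, and RUNX shares of 14.0% to 22.8% and 31.4% to 36.2%. With log2 fold enrichment centred on its median in place of the percentile, 1889 members rose and 1941 fell, with AP-1 letters in 56.6% and 22.6% of them.

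Without UV, the medians of members with 2 or more AP-1 matches averaged 84.9, against 80.45 for members with none. The ranges over the 4 libraries overlapped, at 80.6 to 87.2 and 77.2 to 83.6. The 1056 members with 2 or more matches had median percentiles of 85.3 and 86.6 in unchallenged WT, 89.3 and 89.5 in WT after UV, 87.2 and 80.6 in unchallenged ASH1L-/-, and 88.8 and 89.6 in ASH1L-/- after UV. All 4 UV medians lay above all 4 unchallenged ones. In this class 76 sites rose (7.20%) and 4 fell (0.379%). Members with exactly 1 match had 234 rises (3.83%) and 101 falls (1.65%), and those with none 205 rises (1.64%) and 457 falls (3.65%). The 678 members with TEAD and RUNX letters but none of AP-1 went the other way: their medians were 82.6, 83.0, 87.5 and 80.2 in the unchallenged libraries and 73.6, 76.7, 77.8 and 82.0 after UV, with 6 rises (0.885%) and 61 falls (9.0%). Both ranges overlapped there through ASH1L-/- UV replicate 2 and unchallenged ASH1L-/- replicate 2. Where AP-1 and TEAD letters stood in the same window (1496 members), the medians averaged 84.7 ± 2.53 (SD, n = 4) without UV and 85.3 ± 1.68 (SD, n = 4) with it.

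**Figure D3:**
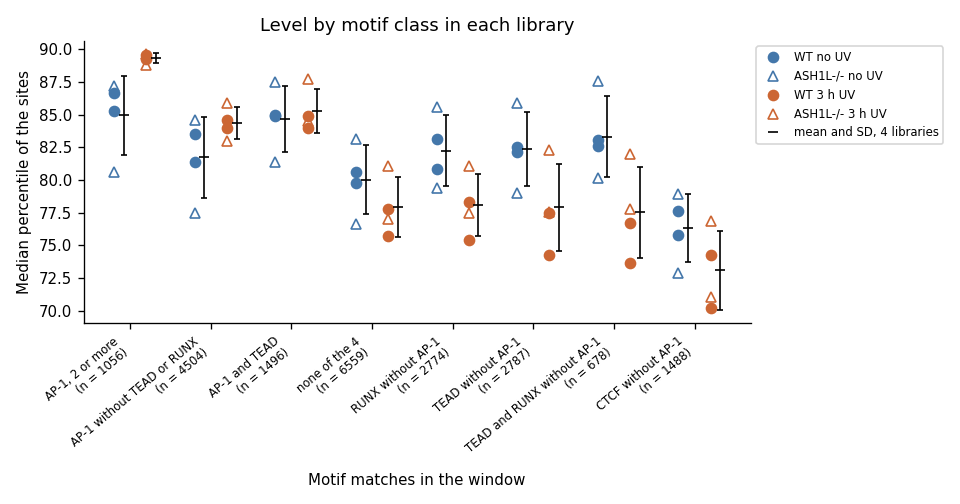
Median percentile of gene body sites, by the motif letters in their window, in each of the 8 libraries. Circles are WT and open triangles ASH1L-/-, blue without and orange 3 h after UV; black bars show mean and SD of the 4 libraries of a side, and the vertical axis starts at about 69. Sites with 2 or more AP-1 matches average 84.9 without and 89.3 with UV, and sites with TEAD and RUNX letters but no AP-1 average 83.3 and 77.5.

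AP-1 letters were also more frequent at sites of all libraries than at sites of 1 library; presence is what the sites were selected on, and the shares are descriptions. AP-1 letters stood in 36.4% of all member windows, in 34.9% of intergenic sites of all libraries, in 9.06% of promoter sites and in 6.93% of the 154958 gene body sites found in 1 library. TEAD shares were 21.8%, 20.7%, 10.7% and 11.5% in that order, RUNX shares 21.5%, 20.4%, 9.02% and 15.9%, and CTCF shares 8.79%, 8.34%, 9.69% and 2.55%. ETS letters, in turn, were in 8.96% of promoter sites and NRF1 letters in 4.29%. The mean GC content was 48.9% in member windows and 60.5% at promoters. Stronger members had AP-1 letters more often, with 28.9%, 32.6%, 38.2% and 45.8% in 4 equal groups from the lowest to the highest mean percentile, while CTCF letters went from 11.8% to 5.28%. Of the 8326 AP-1 matches in member windows, 77.6% had C or G at the open central position. The share was 73.7% of 396 matches in risers and 71.6% of 109 matches in fallers. Intergenic sites that moved had shares near those of the members: 59.0% of 590 intergenic risers and 21.4% of 818 intergenic fallers had AP-1 letters.

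The largest single rise was in intron 5 of CREB5, which encodes a bZIP transcription factor of the CREB family (chr7:28666073-28666654, 19617 bp from the nearest start site). Its percentile was 44.6 and 16.5 in unchallenged WT, 26.1 and 15.4 in unchallenged ASH1L-/-, 91.9 and 93.1 in WT after UV and 86.0 and 84.2 in ASH1L-/- after UV. Every UV library was far above every unchallenged one, by 63.1 ± 8.52 points on average (SE, adjusted p = 0.0231), and fold enrichment went from between 2.19 and 3.13 to between 8.62 and 16.2. CHST12, a chondroitin sulfotransferase gene, had a site in non-coding exon sequence (chr7:2444368-2444934) at 14.0 and 7.91 in unchallenged WT, 54.6 and 4.26 in unchallenged ASH1L-/-, 69.0 and 87.9 in WT after UV and 77.8 and 83.9 in ASH1L-/- after UV. The unchallenged values were scattered, but all lay below the UV values, and the mean difference was 59.5 ± 11.9 (SE, adjusted p = 0.0322). Sites in the solute carrier gene SLC45A4, in ANAPC1, which encodes a subunit of the anaphase-promoting complex, and in the sulfatase gene ARSI rose by 57.7, 57.3 and 55.3 points. ANAPC1 has annotated pseudogenes with which reads may be shared, and its value is uncertain for that reason.

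Of the falls, the largest was at KCTD14, in a stretch shared with the read-through gene NDUFC2-KCTD14 (chr11:78030413-78031181). Its percentile was 79.7 and 93.4 in unchallenged WT, 92.5 and 94.6 in unchallenged ASH1L-/-, 18.4 and 27.7 in WT after UV and 28.5 and 13.6 in ASH1L-/- after UV, a difference of -68.0 ± 8.05 (SE, adjusted p = 0.0231). The window has 2 CTCF matches and none of AP-1, TEAD or RUNX. In HS1BP3 (chr2:20613976-20614662) the 4 unchallenged libraries averaged 75.3 ± 5.05 (SD) and the 4 UV libraries 9.94 ± 6.65 (SD). HS1BP3 was also among the genes with most sites per 100 kb, and the other 9 of its 10 sites were not called. CRYL1, which encodes a crystallin-related dehydrogenase (chr13:20424839-20425432), averaged 83.1 ± 2.89 (SD, n = 4) without and 19.2 ± 12 (SD, n = 4) with UV. The semaphorin gene SEMA7A and PDZD2 fell by 62.2 and 61.6 points. At all of these sites the UV and unchallenged libraries did not overlap, which the choice of the sites required.

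**Figure D4:**
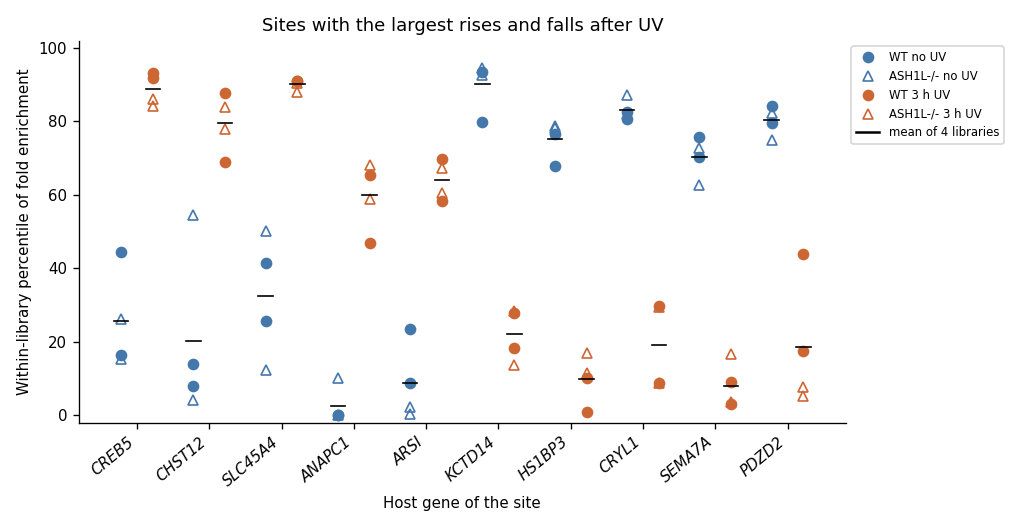
Percentile of the 5 sites with the largest rises and the 5 with the largest falls after UV, by host gene. Each point is 1 library (circles WT, open triangles ASH1L-/-, blue no UV, orange 3 h UV) and black bars are means of 4 libraries; the sites were chosen for this difference. CREB5 goes from a mean of 25.7 to 88.8, and KCTD14 from 90.0 to 22.1.

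A second comparison asked whether the response to UV depended on ASH1L. Over all members, the UV difference in WT and the UV difference in ASH1L-/-, which share no library, had a Pearson correlation of 0.54 across 19686 sites and the same sign at 70.2% of them; sites are not independent replicates, and all 4 groups share the assay and the cell line. The sites called on the average of both genotypes were chosen for a difference that WT and ASH1L-/- share, so their values in each genotype are descriptions. The risers gained a median of 14.2 points in WT and 15.4 in ASH1L-/-, and the fallers had a median difference of -24.1 in WT and -19.1 in ASH1L-/-. Of 19686 members, 451 had a greater and 174 a smaller UV difference in ASH1L-/- at an unadjusted p under 0.05 in limma. That count was not made over all shared sites and is not read as a result. The test of the difference between responses called 0 of 60324 sites (0.0%) in limma, with a smallest adjusted p of 0.203 among members. Without unchallenged WT replicate 2 it called 2 members. With 2 libraries per group, a difference between the responses is measured with a large error, and the absence of calls does not show that they were alike.

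**Figure D5:**
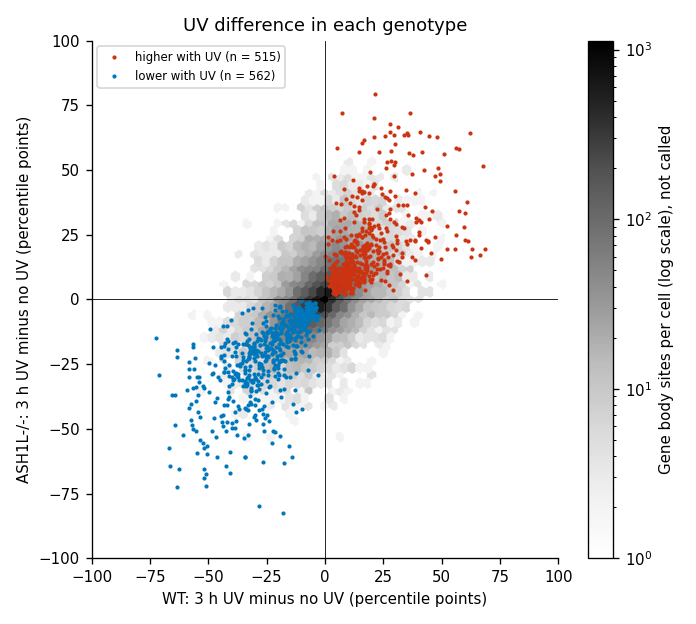
UV difference in percentile points in WT (horizontal) and in ASH1L-/- (vertical) at the 19686 gene body sites. Grey cells count sites that were not called, on a log scale; red points are the 515 sites called higher and blue points the 562 called lower with both genotypes averaged. Called sites lie at the upper right and lower left with 1 exception among 1077, a position that calling on the average of both genotypes largely sets.

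The smallest p in this contrast belonged to a site in intron 1 of TSPAN5, a tetraspanin gene (chr4:98642837-98643563). Fold enrichment there was 14.8 and 21.3 in unchallenged WT, 24.9 and 33.3 in WT after UV, 4.08 and 6.28 in unchallenged ASH1L-/-, and 23.3 and 23.7 in ASH1L-/- after UV. Only the unchallenged knockout libraries were low, at percentiles of 78.6 and 78.5, and the UV difference was 20.1 points greater in ASH1L-/- (± 2.17 SE, adjusted p = 0.203, not passing). A site in LYST, a lysosomal trafficking gene, had a contrast of 16.9 and, with the same tied fold enrichment as TSPAN5, the same percentiles in unchallenged ASH1L-/-. The ASTN2 site fell from 97.7 and 94.5 to 60.01 and 60.9 in WT and from 97.5 and 94.7 to 91.5 and 89.9 in ASH1L-/-. In the opposite direction, a site in RUNX1 (chr21:35294204-35295116) was at 70.1 and 86.6 before and 60.7 and 59.9 after UV in WT, and at 89.6 and 84.9 before and 4.2 and 5.45 after in ASH1L-/-, a contrast of -64.4 ± 15.0 (SE). EYA2 and ROR1 had contrasts of -9.20 and -20.2. None of these passed, the adjusted p being 0.9999 for all but TSPAN5.

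The third comparison set ASH1L-/- against WT with and without UV averaged. No site passed in limma (0 of 60324, 0.0%). The smallest adjusted p among members was 0.192. Of 19686 members, 1204 were higher and 885 lower in ASH1L-/- at an unadjusted p under 0.05 in limma. That count was not made over all shared sites and is not read as a result. All 4 knockout values lay above all 4 WT values at 477 members (2.42%, against 2.57% of all sites) and below them at 378 (1.92%, against 1.51%). Other scales gave between 17 and 282 calls, the latter with log2 fold enrichment centred on its median, where 151 were higher and 131 lower, and the count was 78 without unchallenged WT replicate 2 and 36 without unchallenged ASH1L-/- replicate 1. Counts under other settings are of members, and shares over all sites were not taken there. The sites with the smallest p are given as values. In intron 21 of MAP2K5, which encodes the kinase upstream of ERK5 (chr15:67779626-67780234), the percentile was 8.20 and 0.820 in unchallenged WT, 29.6 and 46.0 in WT after UV, 87.3 and 77.8 in unchallenged ASH1L-/- and 78.9 and 83.3 in ASH1L-/- after UV. Averages were 21.2 in WT and 81.8 in ASH1L-/- (difference 60.7 ± 8.59 SE, adjusted p = 0.194). Sites in PCCB, MAP4K4 and WNT6 averaged 96.8, 97.2 and 96.7 in ASH1L-/- and 78.4, 86.3 and 85.3 in WT. Lower averages in ASH1L-/- were seen in C14orf132 (84.2 against 97.9), the folate enzyme gene MTHFD1 (85.4 against 97.6), GRHL3/STPG1 (27.0 against 76.2) and LZTS1 (38.9 against 81.8). By chromosome, the median genotype difference of members ran from -0.03 points on chromosome 17 to 1.48 on chromosome 15.

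Width was read as the bases that a library's regions covered within the site. Members covered a median of 516 and 527 bp in unchallenged WT, 528 and 607 bp in WT after UV, 537 and 492 bp in unchallenged ASH1L-/- and 552 and 569 bp in ASH1L-/- after UV. The averages were 518 ± 19.3 bp (SD, n = 4) without and 564 ± 33.2 bp (SD, n = 4) with UV, and the ranges crossed only through unchallenged ASH1L-/- replicate 1 and WT UV replicate 1. The median member was wider by 0.13 on the log2 scale after UV, as was the median over all shared sites (0.13), and after centring each library on its median width the difference was 0.0051. In limma, 116 members were wider (0.589%, against 0.826% of all sites) and 14 narrower (0.0711%, against 0.0763%) at an adjusted p under 0.05. With centred widths 57 members were wider and 40 narrower, and the shares over all sites were not taken. In the fit without centring, without any one of 6 libraries 0 passed, and 310 did without unchallenged WT replicate 2 and 740 without unchallenged ASH1L-/- replicate 1. All 4 UV widths lay above the others at 2396 members (12.2%, against 12.8% of all sites) and below them at 242 (1.23%, against 1.19%). The sites that rose in level had a median width difference of 0.37 on the log2 scale and those that fell -0.20. A site in intron 23 of the phosphatase gene INPP4B (chr4:142092644-142093415) covered 671, 747, 715 and 716 bp without and 369, 430, 238 and 233 bp with UV, and its percentile fell as well. At BAIAP2, an adaptor of membrane and actin remodelling, coverage was between 1030 and 1135 bp without and between 491 and 589 bp with UV, and at ENSG00000254706 it was between 1011 and 1128 bp and between 426 and 563 bp. The widest gains, in AVL9, HOATZ and ASTN1, started from 150 to 624 bp and ended between 611 and 1060 bp. Genotype and the difference of the UV responses gave 0 calls in width in limma. At an unadjusted p under 0.05, 535 of 19686 members were wider and 935 narrower in ASH1L-/-. For the difference of the responses the counts were 349 and 380. The counts at an unadjusted p were not made over all shared sites and are not read as results.

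Members were then read by the function of their host genes, in 8 lists whose counts are descriptions. The median UV difference of the lists ran from -2.06 points for the osteoblast and mesenchymal genes to 1.7 for the p53 targets, against -0.42 over all members. Of 30 osteoblast and mesenchymal genes, 18 held 128 members, of which 57 were in RUNX1; 1 rose and 6 fell (4.69%, against 2.85% of all members). A strong site in RUNX2, the master regulator of osteoblasts (chr6:45445250-45446390, intron 5), lay between 97.2 and 99.6 in all 8 libraries. Sites that fell were in ALPL, the alkaline phosphatase of mineralising bone, in RUNX2, with 2 each in RUNX1 and the co-receptor gene NRP1. The RUNX2 site that fell (chr6:45637543-45638307) was at 81.9, 98.9, 93.3 and 94.3 without and at 51, 52.4, 59.97 and 70.4 with UV. The site that rose was in intron 6 of RUNX1 (chr21:34835980-34836689), with an AP-1 match in its window, and went from 90.0 and 90.4 to 97.3 and 99.8 in WT and from 75.7 and 62.6 to 90.3 and 96.4 in ASH1L-/-. These and the other called sites of the lists were named after their values were seen.

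The 32 focal adhesion and actin genes were the best covered, with 170 members in 26 genes, 4 higher (2.35%, against 2.62% of all members) and 7 lower (4.12%, against 2.85%). The higher sites were in SVIL, in ITGA5, the fibronectin receptor subunit, in TLN2 and in PDLIM5, and all 4 windows had AP-1 letters. ITGA5 (chr12:54411249-54411937, intron 2) went from 86.4 and 88.1 to 95.5 and 96.0 in WT and from 85.2 and 85.2 to 96.2 and 94.7 in ASH1L-/-, a difference of 9.38 ± 1.67 (SE, adjusted p = 0.0262). Lower sites included those in TLN2, TNS1, TNS3, PALLD and MYO10. TLN2, the gene of a talin that couples integrins to actin, had a riser at chr15:62444088-62445037 and a faller at chr15:62569447-62570425, both in intron 1. The riser averaged 88.3 ± 2.87 (SD, n = 4) without and 96.3 ± 1.89 (SD, n = 4) with UV, and the faller 69.7 ± 2.74 and 16.1 ± 15.8. In the TEAD-YAP and Hippo list, 62 members in 17 genes gave 0 higher and 3 lower (4.84%, against 2.85% of all members) in limma. At an unadjusted p under 0.05 the counts were 6 and 11. Of the lower sites, 2 were in PTPN14 and 1 in the kinase gene STK3. The strongest site of that list, in intron 2 of VGLL4, a TEAD cofactor (chr3:11600309-11601131), lay between 99.05 and 99.9 in all libraries. The TGF-beta and SMAD list had 66 members in 16 genes. In SMURF2, 1 was higher (1.52%, against 2.62% of all members). In SKI, TGFBR3, SMAD6 and SMAD3, 4 were lower (6.06%, against 2.85%). These were falls in percentile. Fold enrichment with and without UV overlapped at SKI, TGFBR3 and SMAD6, and did not at SMAD3. At SMAD3, the receptor-regulated SMAD (chr15:67144557-67145205), the values were 82.4, 83.0, 92.1 and 86.6 without and 47.5, 45.2, 64.6 and 64.1 with UV.

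Of the AP-1 and MAP kinase genes, 17 of 28 held 52 members, with 1 higher and 1 lower. That was 1.92% each, against 2.62% and 2.85% of all members. The receptor gene EGFR (chr7:55185939-55186697, intron 20) rose from 94.2 and 96.4 to 99.3 and 99.4 in WT and from 87.6 and 82.0 to 98.2 and 96.9 in ASH1L-/-, and KSR1, a scaffold of the same cascade, fell by 24.1 points. The p53 targets and the repair genes held few sites: 15 members in 10 of 26 p53 target genes and 15 in 9 of 34 genes of nucleotide excision repair and lesion bypass, and 0 were called in either list in limma, with 1 higher and 2 lower in each at an unadjusted p under 0.05. Of all 19686 members, 2355 were higher and 2785 lower at that p. The strongest site of the p53 list was at ZMAT3, between 92.8 and 97.7, and that of the repair list at XRCC1, between 95.5 and 98.4. Among the H3K4 and H3K36 methyltransferases and their partners, 10 of 19 genes held 28 members, 15 of them in SMYD3, and 3 rose (10.7%, against 2.62% of all members) and 2 fell (7.14%, against 2.85%). The risers were in coding sequence of KMT2D, an H3K4 methyltransferase (chr12:49049464-49050310), from 89.8 ± 2.69 to 96.3 ± 1.26 (SD, n = 4), in coding sequence of SETD2, the H3K36 methyltransferase (chr3:47016783-47017555), from 83.3 ± 9.37 to 95.5 ± 2.4 (SD, n = 4), and in KDM5C. KDM5C encodes an H3K4 demethylase. Its riser (chrX:53186271-53186885) was at 77.7, 83.4, 80.0 and 71.0 without and 98.1, 95.4, 90.3 and 96.1 with UV. The neighbouring faller (chrX:53184706-53185363) was at 89.0, 81.4, 92.6 and 89.7 without and 65.6, 56.6, 77.4 and 80.3 with UV. The riser has 1 AP-1 match in its window, and the faller has TEAD and RUNX letters. Called sites of the lists did not all divide in this way. The risers in KMT2D, SETD2, EGFR and SMURF2 have no AP-1 match, and the fallers in TNS1, KSR1 and SKI, and one each of those in PTPN14 and RUNX1, have AP-1 letters.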

How the data were processed

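ATAC-seq libraries were made by the authors from U2OS cells. Per the labels and the submitters' processing notes, reads were trimmed with cutadapt 1.9.1, aligned to hg38 with Bowtie2 2.4.5, handled with SAMtools 1.7, bedtools 2.29.2 and Picard, and peaks were called in each library separately with MACS2 2.2.7.1. The deposited lists give fold enrichment over background (a linear ratio) and −log10 p-values and q-values per peak, and they include peaks with a q-value over 0.05; the score that the peak caller gave each deposited peak was not used here, nor were aligned reads or counts, so depth is known only through the background pile-up. Members and gene lists were chosen with earlier results of these data known.

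Records with the same interval were joined to 1 region with its highest fold enrichment. Regions were ranked within each list, with tied values sharing a mean rank, from 0 to 100, and a site took the percentile of its strongest region. Because the percentile depends on the other regions of a list and is bounded, it compresses differences among strong sites. Start sites, introns and host genes came from GENCODE 44 on hg38. Differences were fitted with limma 3.58.1 (R 4.3.3, trended empirical Bayes, two-sided) over all 60324 sites shared by the 8 libraries, with a mean per group of 2 libraries, and p-values were adjusted over all of these sites by the Benjamini-Hochberg method. Motifs were searched on both strands of the 200 bp around the mean summit.

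Named sites followed these rules, with at most 1 per gene except for the most even members and the lists: 6 with the highest lowest percentile; 5 called rises and 5 called falls with UV that were largest without overlap; 4 and 4 for genotype and 3 and 3 for the difference between responses, by smallest p and at most 2 per chromosome, since none was called; 3 wider and 3 narrower; 3 with the smallest range between mean percentiles of 60 and 90; the 3 strongest of each list; and 8 and 5 host genes by number and density of sites. A few items that these rules select are not reported here. Alternatives covered the ranking, the scale, a q-value of 0.01, the cover of a site, the distance rule, depth and the replicate number as terms of the fit, and each library left out in turn. Motif shares by summit spread, by level and in refits were added after seeing the data.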

Additional observations from a re-analysis of the deposited data

How the results depend on the processing

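The number of members called with UV was 1077, and it was 2921 when regions were ranked only among the sites of all libraries, 2266 with a normal score of the percentile, 5157 with log2 fold enrichment (4999 higher and 158 lower) and 3830 with log2 fold enrichment centred on its median. Without one library at a time it ran from 0 to 1687. Requiring a q-value of 0.01 or below gave 975 calls (750 higher and 225 lower) and moved the median UV difference of members from -0.42 to 3.04 percentile points. Over all shared sites that median moved in the same direction, from -1.39 to 1.30. The genotype count was 0 and became 49, 39, 17 and 282 under the same 4 scales in that order, and 0 to 78 without one library; the count for the difference between responses ran from 0 to 2. In width, 130 members were called with UV, 58 where regions had to cover 50% of the site, and 0 to 740 without one library. Centring log2 width gave a median difference of 0.0051 in place of 0.13, and 2 genotype calls in place of 0. The counts in this paragraph are of members, and shares over all sites were not taken under the other settings. The cause of the changes between settings was not tested. Leaving out a library leaves fewer samples and a group of 1, whose library is assumed to vary like the others. Medians over members without one library ran from -1.70 to 0.54 points for UV, -0.43 to 1.84 for genotype and -0.81 to 4.05 for the difference between responses. Over all shared sites the same medians ran from -2.53 to -0.52, from 0.0020 to 1.99 and from -0.40 to 3.68 points. In log2 width the medians over members ran from 0.082 to 0.18, from -0.056 to 0.030 and from -0.086 to 0.089.

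Deviations of same-numbered libraries from their group means had correlations of -0.079 to 0.137 over the 6 pairs of groups. The labels do not say whether same-numbered libraries were processed together, and these correlations cannot settle it. With a replicate block, 753 members were called for UV in percentile and 0 in width. With depth as a covariate, 672 members rose in percentile and 484 fell. Precision is limited by 2 libraries per group and by tied fold values at low depth.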
